A study of Mus musculus with 6 samples.

Results

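The ERBB system in these tumour cells was examined through 7 genes, which were the ligands Areg, Ereg, Hbegf and Tgfa and the receptors Egfr, Erbb2 and Erbb3. They were taken from the 31055 features of the deposited matrix by gene symbol, and each symbol named 1 feature. All 7 were detected. The 4 ligands and Erbb2 and Erbb3 reached 10 unique molecular identifiers (UMIs) of the gene per 1000000 UMIs of the class (CPM) in at least 1 of the tumour cell classes compared, and Egfr did not. A UMI marks the transcript copy that was captured, and its PCR copies add nothing to the count.

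The cells were neoplastic cells sorted from lung tumours of 6 mice. All mice carried Lkb1XTR/XTR (symbol Stk11) and Rosa26LSL-tdTomato, and tumours were started by lentiviral Cre delivered to the airways, which activates the red tdTomato label and turns the XTR cassette so that it traps the Lkb1 transcript and ends it in GFP. The 3 Restored mice also carried FLPo-ERT2 and received tamoxifen, which lets the FLPo recombinase delete the trap. Of the 3 NonRestored mice, 1 carried FLPo-ERT2 and received vehicle, and 2 lacked it and received vehicle or tamoxifen. Tumours had grown for 20 weeks before 2 weeks of treatment, and ages were not given in the labels. The trap is set only in cells that Cre reached.

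EGF-family ligands are made as membrane-bound precursors that ADAM proteases release, and they then act on the same cell or its neighbours. Amphiregulin (Areg), epiregulin (Ereg), HB-EGF (Hbegf) and TGF-alpha (Tgfa) bind the EGF receptor, and Ereg and Hbegf can also act through ERBB4. ERBB2 has no known ligand and ERBB3 has little kinase activity, so both work as partners of other receptors, and ERBB3 is a receptor of neuregulins. In the distal lung this system is known for its part in repair, in which alveolar type II (ATII) cells, the makers of surfactant, can pass through a keratin-rich transitional state on the way to flat alveolar type I (ATI) cells. Active receptors signal through the MAPK pathway, among others.

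The matrix pooled 16017 cells with 266713311 UMIs and no map from cells to mice, so it was treated as 1 sample. No value below therefore has a replicate error or a p-value, and intervals are exact 95% intervals that cover counting error only. Restored and NonRestored mice were not compared, since cells were not assigned to mice. Of all cells, 12183 had at least 500 genes and at most 20% mitochondrial UMIs, with a median of 19348 UMIs. No 2 cells had identical counts over all features.

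Cells were divided by genes that are not in the family, in UMIs per 10000. The ATII gate held 6975 cells with Sftpc of at least 500, Hopx under 2 and the sum of Krt8 and Krt18 under 50, and the ATI gate held 956 cells with Hopx of at least 15 and the same keratin limit. The keratin-high gate held 1183 cells with a keratin sum of at least 50, and 3069 cells lay outside the 3 gates. Leaving out the genes that set the gates, 11 of 11 ATII markers were highest in the ATII gate, 10 of 11 ATI markers in the ATI gate and 7 of 8 markers of the transitional state in the keratin-high gate. The 3 ciliated markers summed to 287 CPM in keratin-high cells and 25.3 CPM in ATII cells. This was almost only Tppp3 at 286 CPM, since the defining genes Foxj1 and Ccdc153 stood at 0.359 and 0.0326 CPM in keratin-high cells. Median depth was 21660 UMIs in ATII cells, 11796.5 in ATI cells and 23490 in keratin-high cells, and median mitochondrial shares were 4.28%, 2.21% and 1.96%.

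Areg, Ereg and their relatives Epgn (epigen) and Btc (betacellulin) lie next to each other on chromosome 5. In the GENCODE M21 annotation of GRCm38 (mm10, the build of the files), Epgn spans chr5:91027464-91035215 on the plus strand, Ereg chr5:91074622-91093646 on the plus strand, Areg chr5:91139599-91148432 on the plus strand and Btc chr5:91357261-91402994 on the minus strand. These 4 are the protein-coding genes among 7 annotated genes in a stretch of 376 kb. Tgfa lies at chr6:86195223-86275719 on the plus strand, Erbb3 at chr10:128567523-128589652 on the minus strand, Egfr at chr11:16752203-16918158 on the plus strand and Erbb2 at chr11:98412470-98437716 on the plus strand. Ereg overlaps the antisense gene Gm19610 by 152 bases at its start. Tgfa overlaps the opposite-strand gene Gm43917, Egfr the opposite-strand gene Egfros, and Erbb2 the opposite-strand genes Gm25048 and Mien1. Erbb3 overlaps Mir6917 on the same strand, and how strand was used in counting is not given in the sources used here. The libraries read the 3′ ends of transcripts.

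The bases just upstream of the start of 3 of these neighbours are shown because the 4 ligand genes of the cluster were all higher in keratin-high cells, as described further on. They were read from the RefSeq promoter table (GRCm38.p6), are written 5′ to 3′ on the gene's own strand, and have in capitals the matches to the motifs searched. They cover chr5:91027397-91027463 for Epgn, chr5:91139479-91139598 for Areg and chr5:91402995-91403114 for Btc, which are all bases before the annotated gene start.
Epgn: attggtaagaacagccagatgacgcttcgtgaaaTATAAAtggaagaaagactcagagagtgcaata
Areg: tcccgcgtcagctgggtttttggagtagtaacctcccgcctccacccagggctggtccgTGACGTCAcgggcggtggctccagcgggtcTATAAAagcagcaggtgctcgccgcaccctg
Btc: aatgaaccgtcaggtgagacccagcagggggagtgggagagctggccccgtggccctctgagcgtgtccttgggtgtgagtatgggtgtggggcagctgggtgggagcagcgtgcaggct

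The Areg stretch held TGACGTCA, the full cAMP response element bound by the CREB family, from base 61 to base 54 upstream of the start, and TATAAA, the TATA box, from base 31 to base 26. The Epgn stretch held TATAAA from base 33 to base 28 upstream of the gene start in GENCODE. The RefSeq start of Epgn lies 53 bases further downstream, and counted from it the match was at bases 86 to 81. TGACGTCA was found on either strand in 1.79% of the 32851 windows of 300 bases in the table and TATAAA in 13.6%. TGANTCA, bound by AP-1, was in 7.81% of windows and in none of the 6 windows found for the family (Areg, Epgn, Btc, Tgfa, Egfr and Erbb2). GGAATG, bound by TEAD factors, was in 14.7% of windows and in that of Erbb2. No match overlapped another. The windows of Tgfa, Egfr and Erbb2 were searched and are not printed, and those of Ereg, Hbegf and Erbb3 were not analysed here.

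The 4 ligands were at their highest in keratin-high cells, while Erbb2 and Erbb3 differed by less than 2-fold between the tumour cell gates and Egfr was highest in ATI cells. Areg was measured at 833 CPM (95% interval 829 to 838) in ATII cells, 1198 (1179 to 1216) in ATI cells, 3671 (3650 to 3693) in keratin-high cells and 1215 (1206 to 1225) in cells outside the gates. Keratin-high cells thus stood far above the other classes, and the intervals of ATI cells and of cells outside the gates overlapped. Cells outside the gates included 246 of the 258 fibroblast-marker cells, and without the endothelial, fibroblast and immune cells their Areg level was 1400 CPM (1389 to 1411), above that of ATI cells. In endothelial, fibroblast and immune cells, which were found by their own markers, Areg ranged from 82.0 to 166 CPM.

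Ereg was measured at 81.9 CPM (80.5 to 83.3) in ATII cells, 66.2 (61.9 to 70.7) in ATI cells, 262 (257 to 268) in keratin-high cells and 98.6 (95.9 to 101) outside the gates. Its order differed from that of Areg in that ATI cells were the lowest tumour cell gate. Hbegf was at 119 CPM (117 to 120) in ATII cells, 257 (248 to 266) in ATI cells, 357 (350 to 364) in keratin-high cells and 188 (184 to 192) outside the gates, so that both ATI and keratin-high cells stood well above ATII cells. Tgfa was at 9.32 CPM (8.86 to 9.81) in ATII cells, 11.1 (9.38 to 13.0) in ATI cells, 20.9 (19.3 to 22.6) in keratin-high cells and 10.3 (9.48 to 11.3) outside the gates. The intervals of the 3 lower classes overlapped for Tgfa, and keratin-high cells were apart. Without the endothelial, fibroblast and immune cells, Tgfa outside the gates was at 11.6 CPM (10.6 to 12.6), above the interval of ATII cells.

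Among the receptors, Erbb3 followed the order of Hbegf, with 34.7 CPM (33.8 to 35.6) in ATII cells, 43.6 (41.8 to 45.5) outside the gates, 53.5 (49.7 to 57.6) in ATI cells and 61.4 (58.7 to 64.3) in keratin-high cells. Erbb2 was at 23.9 CPM (23.2 to 24.7) in ATII cells, 27.6 (26.2 to 29.1) outside the gates, 31.5 (29.6 to 33.6) in keratin-high cells and 33.6 (30.5 to 36.8) in ATI cells, and the intervals of the last 2 overlapped. Erbb3 was near 0 in the non-epithelial cells, at 1.23 to 3.71 CPM.

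Egfr was scarce, with 571 UMIs over all 12183 retained cells. It stood at 1.70 CPM (1.51 to 1.92) in ATII cells, 2.05 (1.58 to 2.63) in keratin-high cells, 3.04 (2.58 to 3.56) outside the gates and 5.70 (4.49 to 7.13) in ATI cells. The intervals of ATII and keratin-high cells overlapped, and ATI cells were above the other tumour cell gates. Without the endothelial, fibroblast and immune cells, the level outside the gates was 2.14 CPM (1.73 to 2.61), and its interval overlapped those of ATII and keratin-high cells. The highest level of Egfr was in the 258 fibroblast-marker cells, at 15.4 CPM (11.8 to 19.6) from 64 UMIs, while endothelial and immune cells had 0 UMIs. Erbb4, the remaining receptor of the family, had 0 UMIs in all of these classes.

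**Figure D1:**
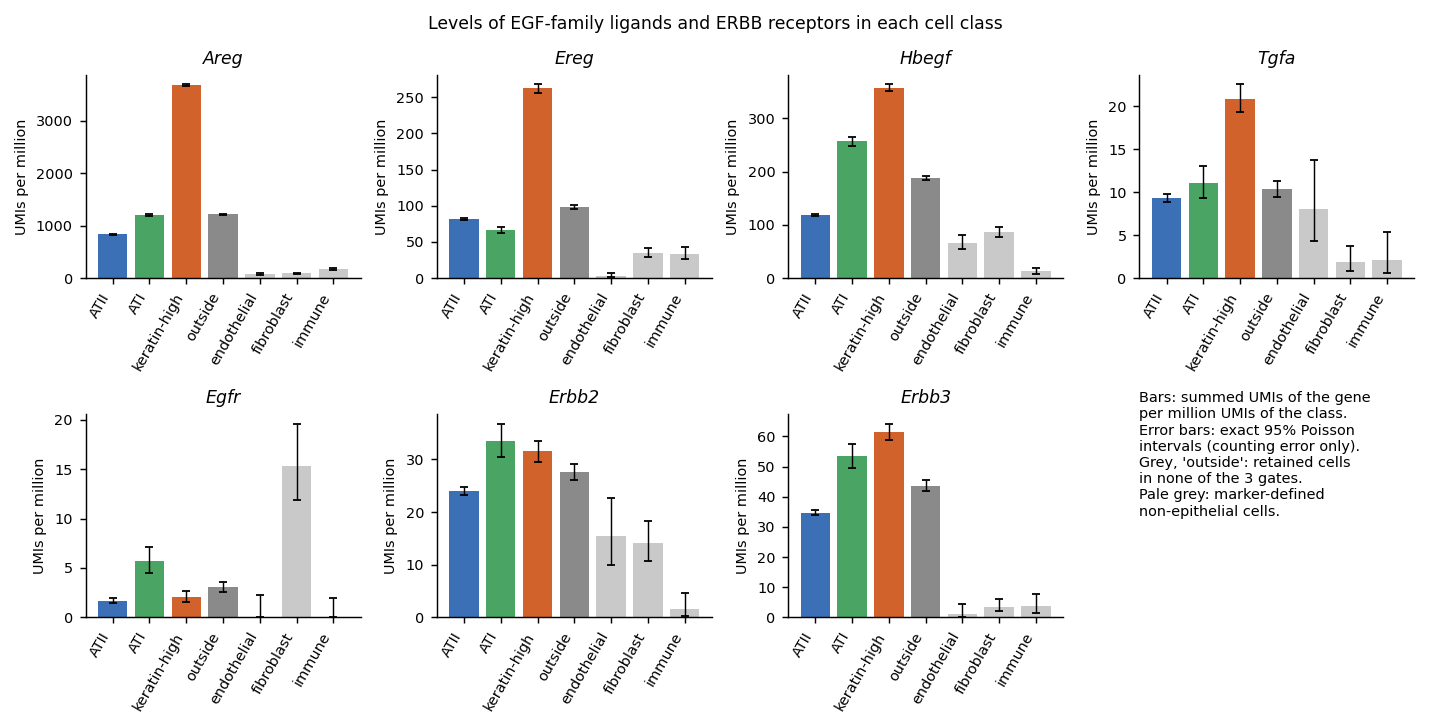
Levels of the 7 genes (CPM of summed UMIs, vertical axes from 0, 1 panel per gene) in the ATII, ATI and keratin-high gates, in cells outside them and in marker-defined endothelial, fibroblast and immune cells, with exact 95% Poisson intervals as error bars. The 4 ligands peak in keratin-high cells (3671 CPM for Areg against 833 in ATII cells), whereas Egfr peaks in fibroblast-marker cells at 15.4 CPM.

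In keratin-high over ATII cells, 4 of the 6 genes with at least 10 CPM in either class were at least 2-fold higher and 0 were lower, and the 4 were the ligands. Tgfa, under 10 CPM in ATII cells, was counted only through its level in keratin-high cells. With 10 CPM asked of both classes, 3 of 5 genes were higher and 0 lower, beside 10.8% and 3.41% of 7090 features. Over all 8363 features at this level, 14.5% were at least 2-fold higher and 5.15% at least 2-fold lower. Areg was 4.41-fold higher (4.37 to 4.44), Ereg 3.20-fold (3.11 to 3.29), Hbegf 3.01-fold (2.94 to 3.08) and Tgfa 2.24-fold (2.04 to 2.46). Features with as large a ratio as Areg made up 3.58% of those measured, and for Tgfa the share was 10.6%. Erbb3 was 1.77-fold higher (1.68 to 1.87) and Erbb2 1.32-fold (1.23 to 1.41), while the Egfr ratio of 1.21 had an interval of 0.903 to 1.59.

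In this comparison the log2 ratio of the median feature was 0.386. The 12 ATII markers, surfactant genes among them, summed to 220296 CPM in ATII and 33526.5 CPM in keratin-high cells, and their part in this shift was not tested. Relative to the median feature, the log2 difference was 1.75 for Areg, 1.29 for Ereg, 1.20 for Hbegf, 0.78 for Tgfa, 0.44 for Erbb3, 0.01 for Erbb2 and -0.11 for Egfr. On that scale Tgfa did not reach 2-fold, Erbb2 matched the median feature, and 634 features were at least 2-fold higher and 694 lower, against 1212 and 431 without centring.

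Of the genes above the level minimum, Hbegf differed most between ATI and ATII cells. It was 2.16-fold higher (2.09 to 2.25) in ATI cells and the 1 gene of 6 past 2-fold, with 0 lower. The shares over 8303 features were 11.5% higher and 5.52% lower, and the median feature was shifted by 0.376 on the log2 scale. Relative to that shift the log2 difference of Hbegf was 0.74, which is under 2-fold. Areg was 1.44-fold higher (1.41 to 1.46) and Ereg stood at 0.808 of its ATII level (0.754 to 0.865), or -0.68 on the log2 scale relative to the median feature. Egfr, below the level minimum, had a ratio of 3.35 (2.56 to 4.33) from 76 UMIs in ATI and 275 in ATII cells. Centring on the median feature changed the features past 2-fold from 955 higher and 458 lower to 532 higher and 714 lower.

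Between keratin-high and ATI cells the median feature differed by 0.01 on the log2 scale. Here 2 of 6 genes were at least 2-fold higher in keratin-high cells and 0 lower, beside 6.21% and 4.15% of 8454 features. Ereg was 3.96-fold higher (3.70 to 4.25) and Areg 3.07-fold (3.01 to 3.12). Tgfa was 1.88-fold higher (1.57 to 2.27) and Hbegf 1.39-fold (1.34 to 1.44). For Erbb2 the ratio was 0.939 with an interval that held 1 (0.839 to 1.05), and for Erbb3 it was 1.15 (1.05 to 1.25). Egfr stood at 0.361 of its ATI level (0.254 to 0.510).

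**Figure D2:**
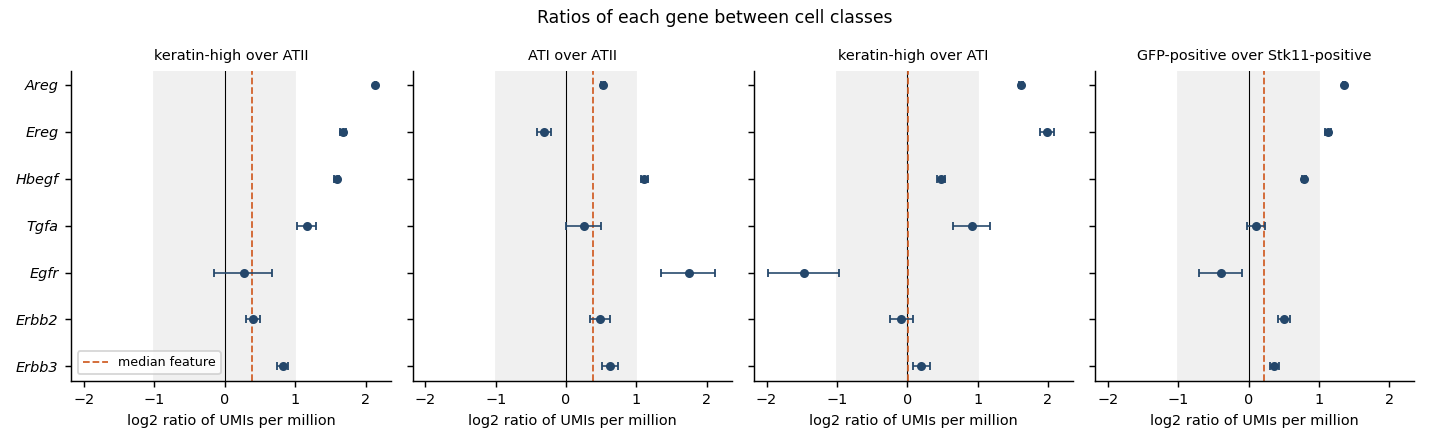
Log2 ratios of CPM for the 7 genes in 4 comparisons of cell classes, with exact 95% intervals. Grey marks changes under 2-fold and the dashed line the median feature (0.386 in the first panel). All 4 ligands lie beyond 2-fold in keratin-high over ATII cells, and Erbb2 lies on the median line there.

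Ligand levels among keratin-high cells differed by Hopx. The 127 keratin-high cells that also had Hopx of at least 15 had 110 CPM of Ereg against 274 CPM in the 1056 with less Hopx, a ratio of 0.404 (0.353 to 0.460). For Areg the values were 2973 and 3724 CPM with a ratio of 0.798 (0.778 to 0.819), and for Hbegf 340 and 358 CPM with a ratio whose interval held 1 (0.880 to 1.02). Tgfa had a ratio of 0.587 (0.384 to 0.863), whereas Egfr had one of 2.52 (1.14 to 5.01) from 10 UMIs in the smaller class.

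Areg, Ereg and Hbegf were higher in each successive bin of the keratin level. Over all retained cells without the endothelial, fibroblast and immune cells, Areg was at 553 CPM where the keratin sum was under 10, 1139 CPM from 10 to 25, 2034 CPM from 25 to 50, 3328 CPM from 50 to 100 and 4358 CPM from 100 to 200. Ereg went from 58.3 to 99.99, 155, 227 and 334 CPM over the same bins. Hbegf went from 82.2 to 183, 274, 338 and 379 CPM. Its largest increase by ratio was thus at the low end of the keratin range. Tgfa was at 8.80, 10.3, 12.6, 20.9 and 20.1 CPM, with its largest difference between neighbouring bins at the gate limit of 50. Erbb2 was at 22.2, 28.5, 32.1, 31.7 and 31.2 CPM and did not go up beyond the bin from 25 to 50. Erbb3 was at 32.2, 41.6, 57.1, 61.9 and 62.7 CPM.

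Along Hopx, the ATI marker, the ligands parted. Areg was at 1159 CPM in cells with Hopx under 2, 1956 CPM from 5 to 15 and 1005 CPM at 30 or more. Ereg fell from 120 CPM in the bin from 2 to 5 to 55.1 CPM at 30 or more. Hbegf was at 147 CPM under 2 and between 251 and 273 CPM in the 3 bins from 5 upwards, and Egfr went from 1.74 CPM under 2 to 6.03 CPM at 30 or more. The cells with the most Hopx thus had the lowest Ereg and Areg of these bins. Their Hbegf (260 to 286) and Egfr (4.27 to 8.28) were not apart from the bin from 15 to 30, where the intervals were 255 to 277 and 3.87 to 6.95. Their median depth was 10247 UMIs, against 20933 UMIs in the lowest bin. Keratin-high cells were included in the Hopx bins, and their part in the course of Areg was not tested.

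After each cell was thinned to 5000 UMIs, which left out shallower cells, Areg was detected in 97.7% of 1090 keratin-high cells (96.6 to 98.5), 76.4% of 6772 ATII cells (75.3 to 77.4) and 72.3% of 841 ATI cells (69.1 to 75.3). The unthinned shares were 97.9%, 89.7% and 77.2%. In cells that should hold little of it, the thinned share was 13.9% of 79 endothelial and 10.4% of 193 fibroblast-marker cells. Immune cells, some types of which make amphiregulin, had a share of 18.1% of 72 cells. Before thinning, with shallower cells included, these classes had median depths of 9706.5, 14498 and 23683.5 UMIs over 128, 258 and 82 cells. The median count of Areg in a thinned cell was 15 UMIs in keratin-high cells and 2 UMIs in ATII and in ATI cells. The most Areg-rich ATI cells reached higher counts than those of the ATII gate, with an upper decile of 16 against 10 UMIs, so the ATI gate spread more widely.

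Ereg was detected in 49.9% of keratin-high cells (46.9 to 52.9), 21.2% of ATII cells (20.2 to 22.2) and 18.2% of ATI cells (15.6 to 21.0), beside 1.27% of endothelial and 9.33% of fibroblast-marker cells, and unthinned in 73.5%, 42.8% and 30.9% of the 3 gates. Hbegf was detected in 65.0%, 31.7% and 55.4% of keratin-high, ATII and ATI cells (87.4%, 59.4% and 68.9% unthinned). Its share was 26.6% of endothelial (17.3 to 37.7), 22.8% of fibroblast-marker (17.1 to 29.4) and 4.17% of immune cells (0.868 to 11.7). The interval of immune cells thus lay below those of endothelial and fibroblast-marker cells, which overlapped, and the interval of endothelial cells overlapped that of ATII cells. For Tgfa, 9.17% of keratin-high cells (7.53 to 11.05) and 4.74% of ATII cells (4.25 to 5.27) had a UMI, and the 6.33% of endothelial cells (2.09 to 14.2) could not be told from either. Egfr was found in 0.975% of ATII cells, 1.28% of keratin-high cells and 2.73% of ATI cells.

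Of the 4 ligands, keratin-high cells most often showed 2 or 3 at once. At least 1 UMI of 3 ligands was found in 36.2% of keratin-high cells (33.4 to 39.2), 12.4% of ATI cells (10.2 to 14.8) and 8.64% of ATII cells (7.98 to 9.33). No ligand was found in 1.28% of keratin-high cells (0.704 to 2.15), 15.7% of ATII cells (14.9 to 16.6) and 14.1% of ATI cells (11.9 to 16.7). Areg and Ereg were found together in 49.9% of keratin-high cells, where the product of their separate shares was 48.8%. With Areg in 97.7% of these cells, the joint share could hardly depart from the product, so it says little about the pair. In ATII cells they were found together in 18.5% (17.6 to 19.4), where the product was 16.2%. Ereg and Hbegf were found together in 8.48% of ATII cells (7.82 to 9.16) beside a product of 6.72%, and Ereg and Tgfa in 0.930% (0.716 to 1.19) beside 1.00%.

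**Figure D3:**
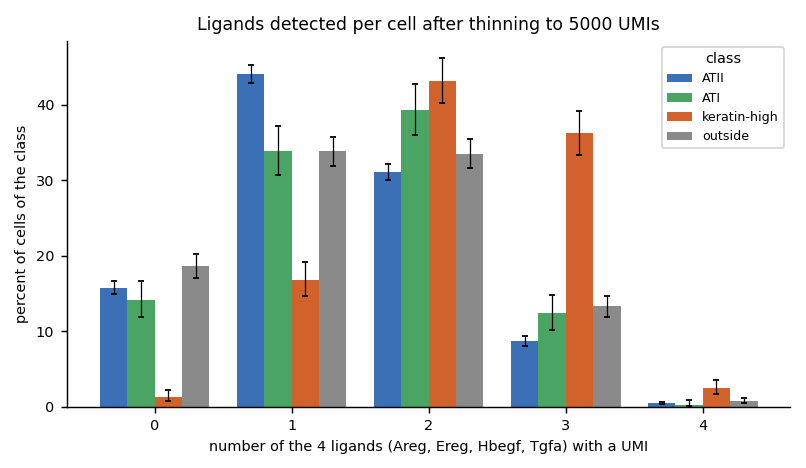
Percent of cells of each class (vertical axis) by the number of the 4 ligands with at least 1 UMI after thinning to 5000 UMIs (horizontal axis), with exact binomial 95% intervals. Keratin-high cells lie mostly at 2 and 3 ligands, and 36.2% of them show 3 against 8.64% of ATII cells.

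The same ligands moved together within a gate. When cells of a gate were ranked by their Areg level and divided into 4 groups of equal size, Ereg in the ATII gate was at 33.9, 52.0, 80.3 and 154 CPM from the lowest to the highest group, a 4.55-fold difference between the ends (4.28 to 4.84). In the keratin-high gate it was at 98.8, 190, 307 and 437 CPM, a 4.42-fold difference (4.07 to 4.81). In the ATI gate the difference was 8.42-fold (5.99 to 12.2). Hbegf differed 2.82-fold (2.70 to 2.95) between the end groups of ATII cells, 2.34-fold (2.20 to 2.48) of keratin-high cells and 2.12-fold (1.89 to 2.38) of ATI cells, and Btc differed 3.34-fold, 2.63-fold and 6.06-fold.

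Tgfa and the receptors did not share this pattern to the same degree. The ratio of the end groups was 1.12 (0.965 to 1.30) for Tgfa in ATII cells and 1.22 (0.972 to 1.53) in keratin-high cells. It was 1.34 (1.24 to 1.45) and 1.39 (1.21 to 1.59) for Erbb3, and 1.11 (1.01 to 1.22) and 1.25 (1.04 to 1.52) for Erbb2. In ATI cells Erbb2 had a ratio of 0.744 (0.565 to 0.983), and the intervals of Tgfa and Erbb3 held 1. Nrg1 was lower in the Areg-richest keratin-high cells, with a ratio of 0.731 (0.592 to 0.9003), and higher in those of the ATII gate, at 2.985 (2.15 to 4.22). The keratins moved with the ranking as well, since Krt8 differed 2.56-fold between the end groups of ATII cells and 1.31-fold of keratin-high cells, and Sftpc stood at 0.446 in the highest group of keratin-high cells relative to the lowest. The median depths of the 4 groups were 19976 to 22669 UMIs in ATII cells and 20184 to 24655.5 UMIs in keratin-high cells, but 7927 to 14462 UMIs in ATI cells. The part of depth in the ATI values was not tested.

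**Figure D4:**
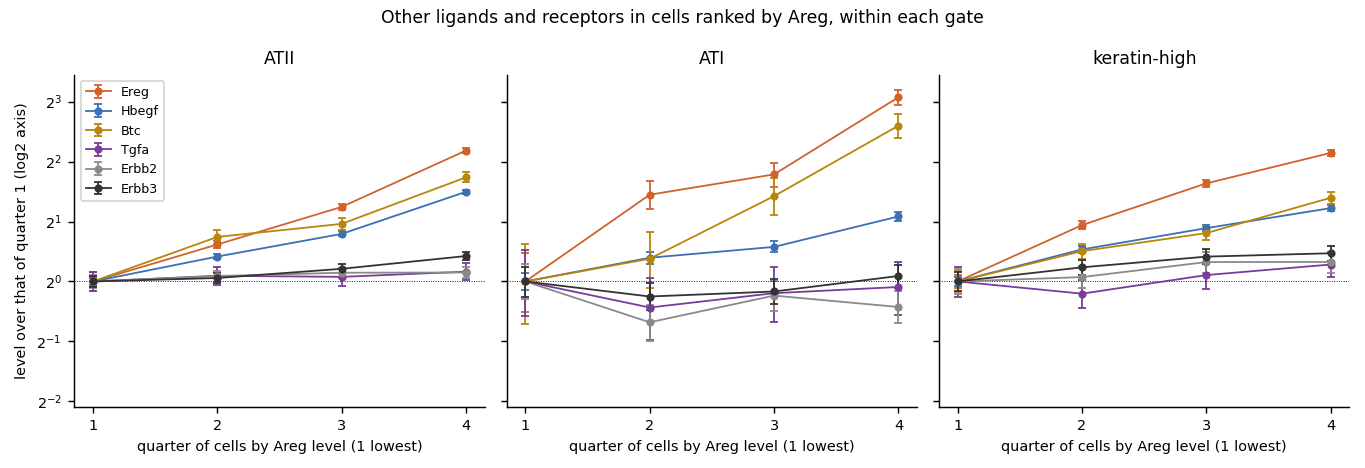
Levels of Ereg, Hbegf, Btc, Tgfa, Erbb2 and Erbb3 (log2 vertical axis, relative to the lowest group) in 4 equal groups of the cells of each gate ranked by Areg, with exact 95% Poisson intervals of each level. Ereg, Btc and Hbegf climb in all 3 gates (4.55-fold for Ereg in ATII cells), while the end groups of Tgfa differ by ratios of 0.938 to 1.22.

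The family members outside the 7 genes divided between the same classes. Btc was at 17.4, 25.9 and 72.9 CPM in ATII, ATI and keratin-high cells and Epgn at 2.62, 0.5995 and 12.7 CPM, so that in keratin-high over ATII cells Btc was 4.20-fold (3.97 to 4.44) and Epgn 4.87-fold higher (4.23 to 5.599), beside 4.41-fold for Areg and 3.20-fold for Ereg. The 4 ligand genes of the chromosome 5 stretch thus had ratios between 3.20 and 4.87. The 4 flanking coding genes read had lower ratios, which were 1.47 (1.32 to 1.64) for Cxcl2, 0.815 (0.759 to 0.875) for Mthfd2l, 0.156 (0.108 to 0.218) for Parm1 and 1.38 (1.31 to 1.44) for Rchy1. The noncoding genes Gm19610 and Gm19619 inside the stretch had ratios of 4.51 (2.27 to 8.90) and 7.02 (4.27 to 11.7), at levels of at most 1.30 CPM. Nrg1, a neuregulin that binds ERBB3, was instead highest in ATI cells, at 58.2 CPM against 25.4 in keratin-high and 2.27 in ATII cells. Egf was under 1 CPM in the 3 gates.

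Of 45 further genes of the pathway, 37 reached 10 CPM in keratin-high or ATII cells, of which 12 were at least 2-fold higher and 1 lower in keratin-high cells, beside 14.5% and 5.15% of all features. Their median log2 ratio was 0.49, beside 0.386 for all features. Epgn, Nrg1, Fosl1 and Myc were under 10 CPM in ATII cells and were counted only through keratin-high cells. With 10 CPM asked of both classes, 8 of 31 were higher and 1 lower, beside 10.8% and 3.41% of features. The largest ratios were those of the AP-1 subunit gene Fosl1 at 11.9 (10.6 to 13.4) and Nrg1 at 11.2 (9.87 to 12.7). Epgn followed at 4.87 (4.23 to 5.599) and Myc at 4.71 (4.28 to 5.18). The 1 lower gene was the ETS factor Etv5 at 0.252 (0.236 to 0.269). The proteases Adam9 and Adam10 and the MAPK phosphatase Dusp6 were also among the 12, whereas Adam17, which cleaves several of these ligands, had a ratio of 1.11 and passed no limit. In ATI over ATII cells 3 of 34 were higher, with Nrg1 at 25.7 (22.7 to 29.2), Adam9 at 2.50 and Adam10 at 2.16, and 4 were lower, beside 11.5% and 5.52% of all features. The share that was higher was thus not above that of all features. These 4 were the MAPK feedback genes Spry4 at 0.277, Dusp4 at 0.291 and Dusp5 at 0.313, and Etv5 at 0.413. Dusp6 went the other way. From the lowest to the highest of the groups ranked by Areg, it was at 105 to 205 CPM in ATI and 59.7 to 121 CPM in ATII cells. Nrg1 in ATII cells and Spry4, Dusp4 and Dusp5 in ATI cells were under 10 CPM, and with 10 CPM asked of both classes 2 of 30 were higher and 1 lower, beside 8.46% and 3.39% of features.

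GFP-positive cells, with a transcript of the trap and no Stk11 UMI, were compared with Stk11-positive cells, with a Stk11 UMI and no GFP UMI. There were 3360 and 3367 of them, 29 further cells had both and 5427 had neither. Of the endothelial, fibroblast-marker and immune cells, 11 were GFP-positive and 89 Stk11-positive. Without cells with at least 2 UMIs over the marker genes of these types, the log2 ratio of Egfr was -0.27, beside -0.40 in all. These are classes of cells and not the study's groups of mice, and since cells of either class may come from any mouse, the class and the mouse cannot be told apart. Cells with neither had a median of 12780 UMIs against 24516.5 and 23635.

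Areg and Ereg were at least 2-fold higher in GFP-positive cells, which made 2 of 6 genes higher and 0 lower, beside 2.58% and 1.37% of 8073 features. Areg was at 1944 CPM (1934 to 1953) in GFP-positive and 758 CPM (753 to 764) in Stk11-positive cells, a ratio of 2.56 (2.54 to 2.59), and 1.25% of features had as large a ratio. Ereg was at 150 and 68.8 CPM with a ratio of 2.18 (2.12 to 2.25), and Hbegf at 221 and 128 CPM with a ratio of 1.73 (1.69 to 1.77). Erbb2 had a ratio of 1.41 (1.33 to 1.502) and Erbb3 one of 1.29 (1.23 to 1.35), while Tgfa had 1.08 with an interval that held 1 (0.988 to 1.18) and Egfr 0.760 (0.613 to 0.9405). The median feature differed by 0.22 on the log2 scale, relative to which Areg differed by 1.14, Ereg by 0.90 and Hbegf by 0.57. Centring changed the features past 2-fold from 208 higher and 111 lower to 138 and 150.

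The 2 classes were not spread alike over the gates: 54.3% of keratin-high cells were GFP-positive and 13.9% Stk11-positive, against 24.97% and 33.7% of ATII cells. Within the ATII gate the ratio of Areg was 2.21 (2.18 to 2.24), from 1241 and 563 CPM. It was 1.65 (1.59 to 1.72) in ATI cells, 1.27 (1.24 to 1.29) in keratin-high cells and 2.20 (2.15 to 2.25) outside the gates. Ereg had ratios of 1.67 (1.60 to 1.74), 1.76 (1.495 to 2.08) and 1.59 (1.47 to 1.71) in ATII, ATI and keratin-high cells and of 2.15 (1.99 to 2.33) outside the gates. Hbegf had a ratio of 1.65 (1.59 to 1.71) in ATII cells, 1.14 (1.05 to 1.24) in ATI cells and 0.935 (0.887 to 0.986) in keratin-high cells. Erbb2 had 1.42 (1.31 to 1.54) in ATII and 1.28 (1.05 to 1.57) in keratin-high cells, and its interval in ATI cells held 1 (0.767 to 1.23). Erbb3 had 1.16 (1.08 to 1.23) in ATII cells, and its intervals in ATI (0.760 to 1.11) and keratin-high cells (0.932 to 1.22) held 1. Outside the gates Erbb2 had 1.37 and Erbb3 1.31. Areg and Ereg were therefore higher in GFP-positive cells in each of the 3 gates, and within these by 2-fold only for Areg in ATII cells, while Hbegf was higher in ATII and ATI cells and slightly lower in keratin-high cells.

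Tgfa went the other way in keratin-high cells, where it was at 19.2 CPM in GFP-positive and 28.4 CPM in Stk11-positive cells with a ratio of 0.675 (0.552 to 0.829), and Egfr had 0.438 (0.231 to 0.861) there from 30 and 16 UMIs. At the same keratin level, from 50 to 100, Areg was at 3456 CPM in 452 GFP-positive and 2882 CPM in 129 Stk11-positive cells, and Tgfa at 18.7 and 30.5 CPM. Where the keratin sum was under 10, Areg was at 847 and 461 CPM and Ereg at 69.9 and 55.4 CPM. In cells of 20000 to 30000 UMIs the pooled ratio was 2.79 (2.74 to 2.84) for Areg and 2.26 (2.13 to 2.40) for Ereg, and under 10000 UMIs it was 1.77 (1.67 to 1.88) and 1.88 (1.56 to 2.26).

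**Figure D5:**
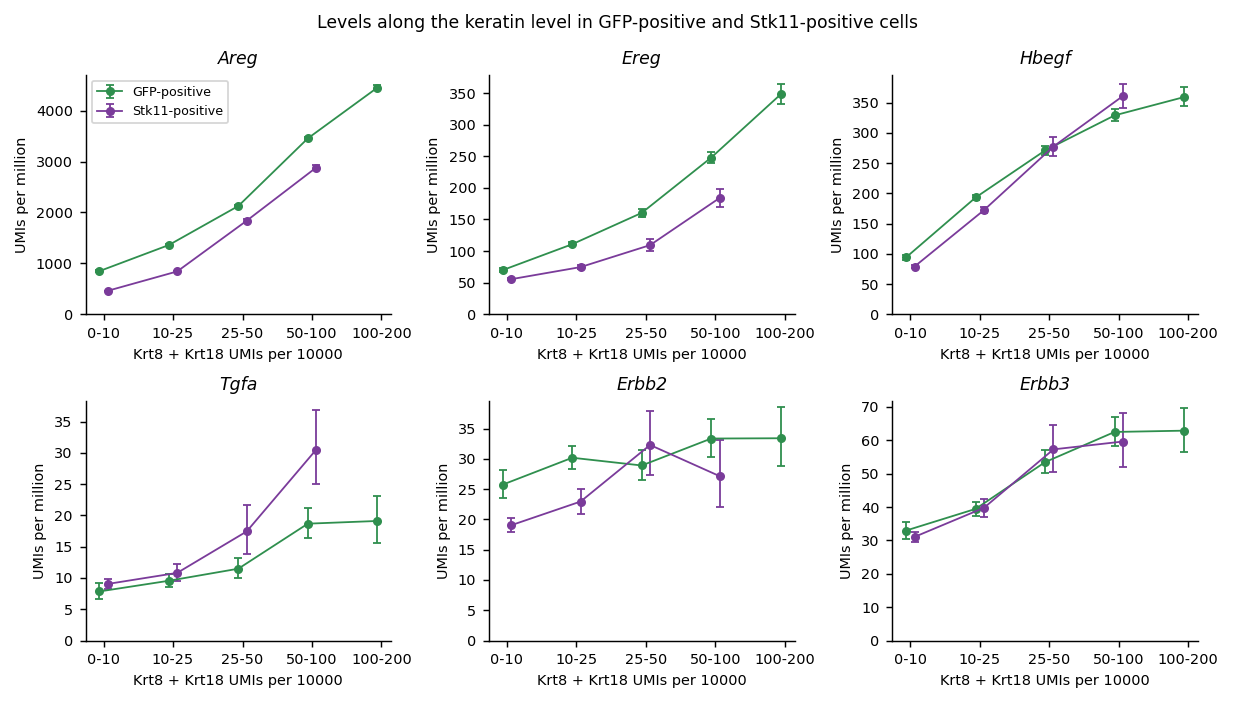
Levels (CPM, axes from 0) of 4 ligands and 2 receptors in bins of the Krt8 and Krt18 sum per 10000 UMIs, for GFP-positive and Stk11-positive cells, with exact 95% Poisson intervals. Bins under 50 cells are left out. Areg and Ereg lie higher in GFP-positive cells in every bin shown for both (3456 against 2882 CPM for Areg from 50 to 100), and Tgfa lies lower (18.7 against 30.5 CPM from 50 to 100).

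The contrast of keratin-high with ATII cells was present in each of these classes, and all features shifted to unlike degrees. At least 2-fold higher and lower were 828 and 407 of 8346 features among GFP-positive cells. They were 1804 and 571 of 8415 among Stk11-positive cells and 1342 and 429 of 8424 among cells with neither. The log2 ratio of the median feature was 0.284, 0.475 and 0.402. Areg was 3.08-fold higher (3.05 to 3.12) in keratin-high than in ATII cells among GFP-positive cells, 5.36-fold (5.26 to 5.47) among Stk11-positive cells and 4.69-fold (4.61 to 4.77) among cells with neither. Hbegf was 2.23-fold, 3.94-fold and 3.31-fold higher, Ereg 2.69-fold, 2.83-fold and 3.09-fold, and Tgfa 2.09-fold, 2.97-fold and 2.27-fold. Erbb2 had ratios of 1.21, 1.34 and 1.16. In ATI over ATII cells, Hbegf was 1.83-fold higher (1.72 to 1.94) among GFP-positive cells, under 2-fold, and 2.64-fold (2.47 to 2.82) among Stk11-positive cells. At least 2-fold higher there were 849 of 8417 and 1013 of 8105 features.

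In GFP-positive over Stk11-positive cells, 35 of the 45 pathway genes passed the level minimum, of which 3 were at least 2-fold higher and 0 lower, beside 2.58% and 1.37% of all features. These were Btc at 3.63 (3.39 to 3.88), the ETS factor Etv4 at 2.52 (2.33 to 2.73) and the cyclin gene Ccnd1 at 2.07 (2.04 to 2.11). Etv4 was just under 10 CPM in Stk11-positive cells, and with 10 CPM asked of both classes 2 of 31 were higher and 0 lower, beside 1.54% and 0.609% of features. Of the ligands of the chromosome 5 stretch, Btc had the highest ratio here, followed by Epgn at 2.75 (2.33 to 3.26), which was under 10 CPM in both classes, Areg at 2.56 and Ereg at 2.18. In keratin-high over ATI cells, 8 of 36 were higher, led by Epgn at 21.3 (10.7 to 49.6), Fosl1 at 16.8 (11.1 to 26.6), Dusp4 at 5.68 and Dusp5 at 5.06, and Nrg1 was lower at 0.436 (0.394 to 0.482). Of all features, 6.21% were higher and 4.15% lower in that comparison. Epgn, Fosl1, Dusp4, Dusp5 and Myc were under 10 CPM in ATI cells, and with 10 CPM asked of both classes 3 of 30 were higher and 1 lower, beside 3.74% and 3.02% of features.

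Immediate early and heat shock genes can respond to cell dissociation, and 10 of them were read in the same classes (Fos, Fosb, Jun, Junb, Ier2, Egr1, Atf3, Dusp1, Hspa1a and Hspa1b). Their summed level was 12263 CPM in ATII cells, 11195 CPM in ATI cells and 10870 CPM in keratin-high cells, and 4 of 10 were higher in keratin-high than in ATII cells. Among these 4, Atf3 was at 1253 and 770 CPM and Hspa1a at 921 and 615 CPM. The summed level was 11560 CPM in GFP-positive and 11795 CPM in Stk11-positive cells, where 4 of 10 were higher in the first and Hspa1a, at 895 and 430 CPM, was past 2-fold. In cells below the median of this sum, Areg differed by 2.38 on the log2 scale and Ereg by 1.85 between keratin-high and ATII cells, beside 2.14 and 1.68 in all. Fos and Jun had the largest levels in the sum and were lower in keratin-high than in ATII cells. Fos was at 2396 against 2781 CPM and Jun at 1914 against 2624 CPM. The limit on the sum therefore does not set the level of the single genes that were higher, and their part was not tested.

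Over 12 classes, the 3 tumour cell gates and the cells outside them each divided into GFP-positive, Stk11-positive and neither, the patterns of Areg and Ereg had a Pearson correlation of 0.914 on the log2(CPM + 1) scale, those of Hbegf and Erbb3 one of 0.961, and those of Areg and Egfr one of -0.09. The classes share a matrix and its depth, and these values are descriptions. Among 7844 genes with at least 10 CPM over all cells, the patterns most like that of Areg were those of Ttc9, Aldoa and Tagln2 (0.987, 0.984 and 0.981). For Ereg they included Hk1 and Tsc22d1 (0.976 and 0.976), and for Hbegf they were Krt7, Tesk1 and Dapk3 (0.993, 0.989 and 0.989). Those most like Tgfa included Mxd1 and Syngr2 (0.956 and 0.949), and those most like Egfr were Abca1, Thap3 and Mcrip1 (0.958, 0.955 and 0.954). The Egfr pattern rests on few counts, down to 16 UMIs in Stk11-positive keratin-high cells. The classes outside the gates kept the fibroblast-marker cells, in which Egfr was highest. Erbb2 was most like Rnf40, Gmeb1 and Spred1 (0.94997, 0.936 and 0.925), and Erbb3 most like Fam129b, Gpank1 and Ppp2r1a (0.989, 0.988 and 0.982).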

How the data were processed

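Neoplastic cells sorted from lung tumours of 6 mice were profiled by 10x 3′ single-cell RNA sequencing. The deposited values were counts of UMIs, which the authors made with Cell Ranger 3.0.2 on mm10, with no normalization. The annotation release was not given in the sources used here. The sort kept tdTomato-positive cells and removed CD45, CD31, F4/80 and Ter119, per the study's methods. The matrix held all mice together, so the planned test between groups of mice was not run.

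Cells with at least 500 genes and at most 20% mitochondrial UMIs were gated on levels per 10000 UMIs. Endothelial, fibroblast and immune cells were those whose markers summed to at least 10 per 10000 and to more than those of the other types. UMIs were summed per class and given per 1000000 (CPM), which weights deep cells. A change was counted from 2-fold, among features with at least 10 CPM in either class, leaving out the gating genes, GFP and Stk11. Exact Poisson intervals were used for levels, conditional binomial for ratios and Clopper-Pearson for shares, at 95%. A share of 0 was limited at 3 counts. These intervals assume independent counts and cover counting error only. Shares were computed after thinning to 5000 UMIs with seed 42. Bins with under 50 cells were not described. No doublet caller was run, and leaving out the 6% of cells with the most UMIs was an alternative instead. No value column was left unused.

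The genes and lists were chosen with earlier results of these data known. Named were the 7 genes, list genes past 2-fold (at most 4 per direction and comparison), markers, and the 3 genes most like each, of which some are not reported here, as is part of the genotype. Btc, Epgn, Nrg1, Adam17, Dusp6 and the flanking genes were described further after their values were seen. The groups ranked by Areg, the handling genes, the ciliated alternative, levels without endothelial, fibroblast and immune cells and the level minimum in both classes were added after seeing the data. The calls and intervals were checked on simulated independent Poisson counts, which is the model that the intervals assume. That check covers the computation and not the spread between cells or mice in these data. Tables were made with pandas 2.3.3 and numpy 2.4.6, intervals with scipy 1.17.1 and plots with matplotlib 3.10.9, in Python 3.11.15.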

Additional observations from a re-analysis of the deposited data

How the results depend on the processing

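The counts of family genes past 2-fold were recomputed under 16 alternatives per comparison, of which the limit on handling genes and that on ciliated markers were chosen after seeing the data, and 58 of 64 values stayed within 1.5 times the reported one. In ATI over ATII cells the count of 1 fell to 0 when totals left out the 10 most abundant genes and when ratios were taken relative to the median feature. In GFP-positive over Stk11-positive cells the count of 2 fell to 1 relative to the median feature and to 1 within the ATII gate, and to 0 within the ATI and within the keratin-high gate. Of all features, 1.95% were higher and 0.545% lower within the ATII gate, 1.53% and 1.07% within the ATI gate, and 2.45% and 2.33% within the keratin-high gate. The cause was not tested. In keratin-high over ATII cells Tgfa was under 2-fold with either of the first 2 scalings and with a keratin limit of 25, which left 3 genes. Scaling also moved all features: without the 10 most abundant genes, 750 were higher and 676 lower in keratin-high over ATII cells, 720 and 600 in ATI over ATII cells, and 191 and 160 in GFP-positive over Stk11-positive cells. Without cells with markers of other cell types, 230 and 69 passed in that last comparison. With a minimum of 5 CPM, 514 features passed 2-fold there in either direction, against 319. Over the 16 alternatives, the ratio of Areg in keratin-high over ATII cells ranged from 3.37 to 5.22, of Ereg from 2.45 to 4.05, of Hbegf from 2.30 to 3.79 and of Tgfa from 1.72 to 2.90. No ratio past 2-fold changed sign. In GFP-positive over Stk11-positive cells, Hbegf, Erbb2, Erbb3 and Egfr kept their sign in 15 of 16 alternatives and Tgfa in 11. Without cells that had a UMI of a ciliated marker, Tgfa also passed 2-fold in keratin-high over ATI cells, which made 3. Shares of cells with a UMI depended on the depth of thinning. No mouse could be left out and no paired analysis was possible because cells were not assigned to mice. Egfr had only 571 UMIs over all retained cells, and the part of depth in this was not tested.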
